A study of Sus scrofa with 8 samples.

Results

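Gene expression was examined for 10 genes that mark fibroblasts or encode glycoproteins of the extracellular matrix, in cells cultured from pig skeletal muscle. The genes were taken by name: DCN and LUM, PDGFRA, MFAP5 and FBN1, and FN1, SPARC, THBS2, TNC and POSTN. All 10 were found among the 25285 genes of the deposited expression table, 8 by the symbol given there and FBN1 and TNC through their Ensembl identifiers. RNA had been sequenced from primary cells of pigs of strain LYD, either undifferentiated or differentiated and from females or males, with 2 libraries in each of the 4 groups and therefore 4 libraries per state. The extraction protocol in the labels calls the cells MuSCs, and no treatment or genetic change is given for any group. The labels give neither the age of the animals nor the differentiation medium or time. They do not say whether 2 replicates came from separate animals, so the p-values below measure only the spread between these libraries. Values are FPKM, fragments scaled to transcript length and to the mapped fragments of the library, so levels of different genes are compared per length.

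Muscle fibroblasts and their fibro-adipogenic precursors are classically recognised by the receptor PDGFRA and by the secreted proteoglycans decorin and lumican, and they make most of the connective tissue around muscle fibres. Myogenic cells also secrete matrix: satellite cells, the stem cells of muscle, are known to lay down fibronectin when activated, and myotubes are enclosed in a basement membrane. Matricellular proteins such as tenascin-C, periostin, thrombospondin-2 and SPARC act on cell adhesion and matrix assembly and are known for their induction during tissue repair. In libraries from a whole culture, fewer cells of a type and less RNA per cell cannot be told apart.

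Differentiated cells had more mRNA of the microfibril protein MFAP5 and of SPARC, and less of fibronectin (FN1), tenascin-C (TNC) and fibrillin-1 (FBN1). Periostin (POSTN) also passed the test upward, but its undifferentiated mean of 0.104 FPKM let it be tested only through its higher differentiated values. The POSTN call was also lost with no filter on low values and under quantile normalization. DCN, LUM, PDGFRA and THBS2 did not pass. Mean MFAP5 was 10.1 times as high in differentiated as in undifferentiated libraries, and mean FN1 was 4.07 times as high in undifferentiated ones. With POSTN counted, 3 of the 10 genes rose and 3 fell by limma's moderated test on log2(FPKM + 1) with Benjamini-Hochberg adjustment over all 12963 tested genes, where an adjusted p under 0.05 counts as a change. Against that stands a background in which 50.0% of tested genes changed, 18.0% upward and 31.9% downward. A count of 6 in 10 lies near that background, as do the 5 of 10 whose states do not overlap against 47.3% of tested genes. In 4 of these the differentiated libraries were above (17.1% of tested genes) and in FBN1 the undifferentiated ones (30.2%). The 4 include PDGFRA and POSTN, whose direction was fixed by the level required for testing, so nothing is read from that count. The median log2 change was 0.82 over the 10 genes and -0.18 over all tested genes, and a log2 change on this scale understates that of genes with low FPKM. The median of the 10 includes LUM, PDGFRA and POSTN, whose direction was fixed by the level required for testing. No upward shift of the 10 genes is read from it. When libraries were rescaled by median ratios the median of all tested genes moved up by 0.20, and the called genes went from 36.1% to 52.4% upward. Under that scaling FBN1 no longer passed and the other 5 changes did.

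**Figure D1:**
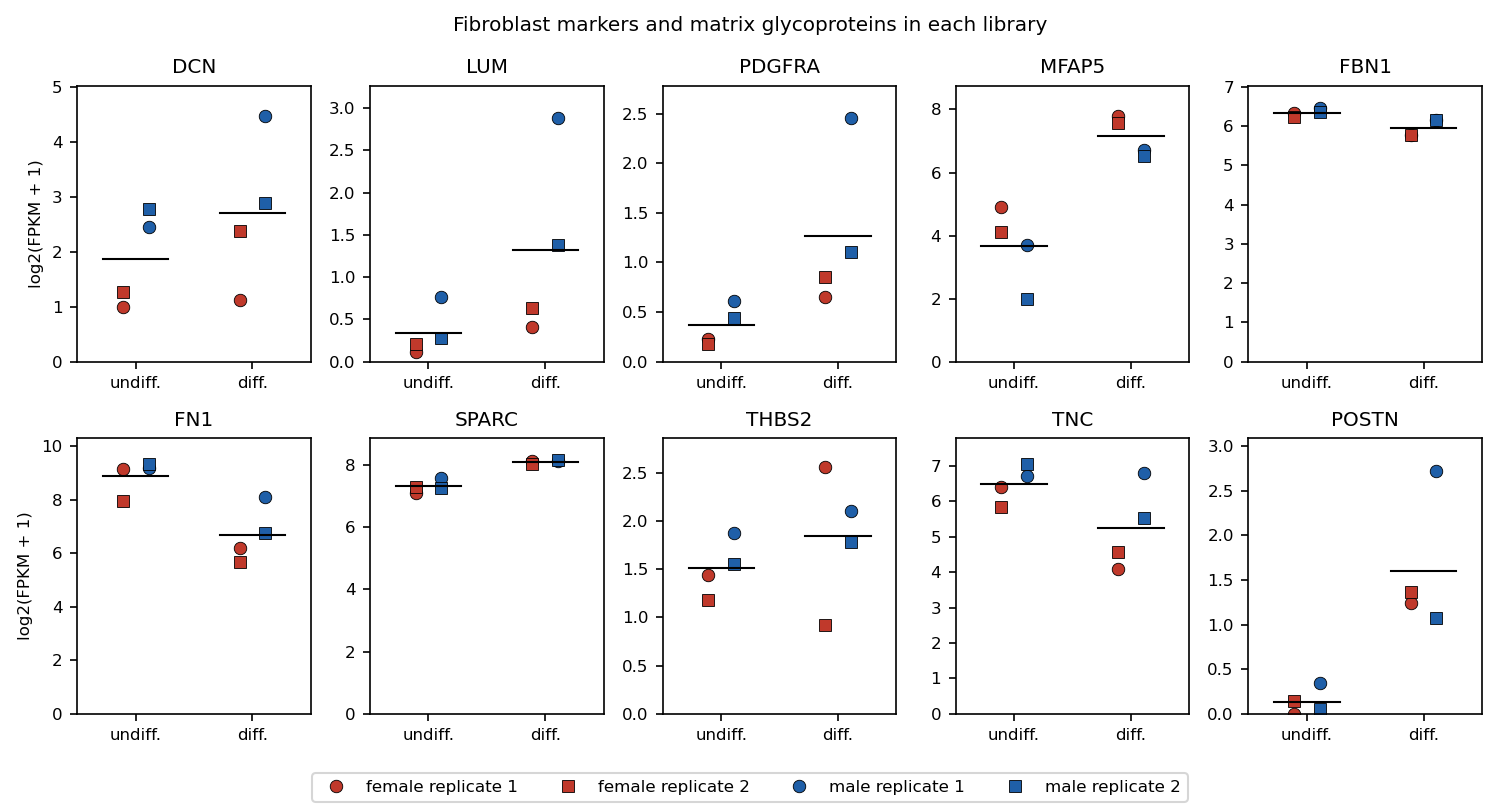
Level of each gene as log2(FPKM + 1), on a separate axis per gene, for the 4 undifferentiated (undiff.) and 4 differentiated (diff.) libraries; red marks females, blue males, circles replicate 1, squares replicate 2, and bars are means over 4 libraries. MFAP5, SPARC and POSTN lie higher and FN1, TNC and FBN1 lower in differentiated cells, and male replicate 1 (blue circle) is the highest differentiated library for DCN, LUM, PDGFRA, FBN1, FN1, TNC and POSTN.

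Decorin, encoded by DCN (ENSSSCG00000000915, chromosome 5, 96109666 to 96143719, Sscrofa10.2), is a small leucine-rich proteoglycan that binds collagen fibrils and growth factors such as TGF-beta. In undifferentiated cells it stood at 0.999 and 1.41 FPKM in the female libraries and 4.46 and 5.86 in the male ones. In differentiated cells it stood at 1.18 and 4.20 FPKM in females and 21.3 and 6.38 in males. The states overlapped widely, males were above females in both, and differentiated male replicate 1 stood alone at the top. The means were 3.18 ± 2.36 (SD, n = 4) and 8.26 ± 8.94 FPKM, and 3.92 ± 2.61 FPKM in differentiated cells when that library was left out. The log2 change was 0.84 with a 95% interval of -0.21 to 1.90 (limma adjusted p = 0.154), and 0.44 without that library (adjusted p = 0.359). The exact two-sided permutation test over the 70 ways to divide the 8 libraries gave p = 0.371.

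Lumican (LUM, ENSSSCG00000000916, chromosome 5, 96175704 to 96184752) belongs to the same proteoglycan family, regulates the thickness and spacing of collagen fibrils, and lies next to DCN on the same strand. Undifferentiated libraries held 0.0792 and 0.155 FPKM in females and 0.704 and 0.216 in males. Differentiated ones held 0.324 and 0.547 FPKM in females and 6.37 and 1.60 in males. Within each sex both differentiated libraries were above both undifferentiated ones, but the states overlapped across the sexes, and differentiated male replicate 1 stood far above the rest. The log2 change of 0.98 ± 0.383 (SE) did not pass the threshold (limma adjusted p = 0.0769), and the exact permutation test gave p = 0.114.

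The receptor tyrosine kinase PDGFRA (ENSSSCG00000008841, chromosome 8, 43008336 to 43046215), which binds platelet-derived growth factors and defines fibro-adipogenic cells in muscle, was likewise scarce. It read 0.175 and 0.131 FPKM in undifferentiated females and 0.533 and 0.357 in undifferentiated males. Differentiated females had 0.570 and 0.810 FPKM and differentiated males 4.50 and 1.15. Here the 4 differentiated libraries were all above the 4 undifferentiated ones, by a narrow margin between 0.533 and 0.570 FPKM. The exact permutation test gave p = 0.0286, the smallest that 4 against 4 libraries allow, but a gene this low before differentiation could be tested only if it was higher afterwards. The log2 change of 0.90 ± 0.348 (SE) missed the threshold (limma adjusted p = 0.0743). With a pseudocount of 0.1 in place of 1 the log2 change was 1.89 and passed (limma adjusted p = 0.0412). Under quantile normalization it was 0.59 (limma adjusted p = 0.262), with an exact permutation p = 0.143.

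MFAP5 and FBN1 encode proteins of the same structure: fibrillin-1 is the backbone of microfibrils, the scaffolds of elastic fibres, and MFAP5 (MAGP2) is a small glycoprotein that associates with them. Their transcripts moved in opposite directions. MFAP5 (ENSSSCG00000000666, chromosome 5, 65575791 to 65589682) had 28.8 and 16.3 FPKM in undifferentiated females and 12.1 and 3.00 in undifferentiated males. Differentiated females had 223 and 188 FPKM and differentiated males 105 and 90.7. All 4 differentiated libraries were far above all undifferentiated ones, and females were above males in both states. Its mean went from 15.1 ± 10.7 to 152 ± 64.1 FPKM (SD, n = 4), a log2 change of 3.47 ± 0.392 (SE; limma adjusted p = 0.000909). MFAP5 rose under each of the 15 alternative analyses, and without single libraries the log2 change ran from 3.05 to 3.90.

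Fibrillin-1 (FBN1, ENSSSCG00000004658, chromosome 1, 137103320 to 137303566) varied least between the libraries of a state among the 3 genes that fell. Undifferentiated libraries had 79.2 and 73.6 FPKM in females and 87.3 and 80.4 in males. After differentiation the females had 53.4 and 53.5 FPKM and the males 70.6 and 69.9. All differentiated values lay below all undifferentiated ones, and the 2 replicates of each differentiated sex differed by less than 1 FPKM. The mean went from 80.1 ± 5.63 to 61.8 ± 9.71 FPKM (SD, n = 4), a log2 change of -0.38 ± 0.0742 (SE; limma adjusted p = 0.0073). Under median-ratio scaling the log2 change was -0.15 and the call was lost (limma adjusted p = 0.137).

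Fibronectin (FN1, ENSSSCG00000016174, chromosome 15, 130357873 to 130430503), the adhesive glycoprotein that cells bind through integrins, was the most abundant of the 10 transcripts in undifferentiated cells. Its undifferentiated values were 564 and 245 FPKM in females and 574 and 651 in males. In differentiated cells 72.7 and 50.6 FPKM were found in females and 270 and 106 in males. The states overlapped at 1 point, differentiated male replicate 1 being above undifferentiated female replicate 2. The mean went from 509 ± 180 to 125 ± 99.3 FPKM (SD, n = 4), a log2 change of -2.22 ± 0.387 (SE; limma adjusted p = 0.00463), and of -2.55 without differentiated male replicate 1. The exact permutation test gave p = 0.0571.

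SPARC (ENSSSCG00000017083, unplaced scaffold GL894053.2, 48146 to 60885), a collagen-binding matricellular protein, was the most even of the genes that rose. It read 136 and 156 FPKM in undifferentiated females and 191 and 150 in undifferentiated males. Differentiated females had 275 and 258 FPKM and differentiated males 275 and 282. The differentiated libraries of both sexes lay within a narrow band above all undifferentiated ones. The mean went from 158 ± 23.5 to 272 ± 10.3 FPKM (SD, n = 4), a ratio of means of 1.72 and a log2 change of 0.79 ± 0.108 (SE; limma adjusted p = 0.00185). SPARC rose under all 15 alternatives, with log2 changes of 0.70 to 1.02.

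Tenascin-C (TNC, ENSSSCG00000005494, chromosome 1, 286732772 to 286813962), a large hexameric glycoprotein of repairing tissue that counteracts adhesion to fibronectin, fell together with FN1. Undifferentiated females had 83.7 and 56.3 FPKM and undifferentiated males 103 and 132. Differentiated females had 15.9 and 22.6 FPKM and differentiated males 110 and 44.7. Every differentiated library other than male replicate 1 was below the lowest undifferentiated value, and that library was within the undifferentiated range. The log2 change was -1.26 ± 0.316 (SE; limma adjusted p = 0.0181), and -1.58 without that library (adjusted p = 0.00544). The exact permutation test gave p = 0.143, and the limma call was lost without undifferentiated female replicate 1, undifferentiated male replicate 2 or differentiated female replicate 1 (adjusted p = 0.0634 to 0.0673), with no filter on low values (0.0686) and in a fit with no sex term (0.0957). A second entry of the table described as tenascin (ENSSSCG00000026492, chromosome 1, 286604311 to 286608866) carried no symbol and gave the libraries of each state the same order as TNC. It had 52.7, 44.1, 69.6 and 90.4 FPKM in undifferentiated and 9.94, 14.4, 69.3 and 34.8 in differentiated cells, females first, and whether it is a separate part of TNC was not tested.

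Periostin (POSTN, ENSSSCG00000009361, chromosome 11, 13198182 to 13233797), a fibroblast-derived protein that supports collagen cross-linking, was nearly undetected before differentiation. It was listed at 0 in undifferentiated female replicate 1, at 0.107 FPKM in female replicate 2 and at 0.272 and 0.0380 in males. Differentiated females had 1.36 and 1.58 FPKM and differentiated males 5.60 and 1.11. All 4 differentiated libraries were above all 4 undifferentiated ones, with male replicate 1 far above the rest. The log2 change was 1.46 ± 0.395 (SE; limma adjusted p = 0.0236), and 1.05 without that library (adjusted p = 0.0157). The call was lost in 6 of the 8 fits that leave out 1 library (adjusted p = 0.0529 to 0.0665), and held without differentiated male replicate 1 or differentiated male replicate 2. It was also lost with no filter on low values (limma adjusted p = 0.0606) and under quantile normalization (adjusted p = 0.0603).

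Thrombospondin-2 (THBS2, ENSSSCG00000004012, chromosome 1, 1590789 to 1616464), an inhibitor of angiogenesis made by fibroblasts, showed no ordered difference between the states. Undifferentiated libraries had 1.71 and 1.27 FPKM in females and 2.68 and 1.94 in males. Differentiated females had 4.93 and 0.898 FPKM, the highest and the lowest of the 8 values, and differentiated males had 3.29 and 2.44. The 2 differentiated female replicates therefore differed more from each other than the states did. The log2 change was 0.33 with a 95% interval of -0.58 to 1.25 (limma adjusted p = 0.493). Without differentiated female replicate 1 it was -0.08 (adjusted p = 0.766), and without differentiated female replicate 2 it was 0.74 (adjusted p = 0.0314).

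All 10 genes reached the level required for testing, a mean over the libraries of 1 FPKM or more. LUM, PDGFRA and POSTN reached it through the differentiated libraries, since their undifferentiated means were 0.289, 0.299 and 0.104 FPKM. Without differentiated male replicate 1 their means over 7 libraries were 0.517, 0.532 and 0.638 FPKM, under that level. A gene with such undifferentiated levels could be tested only if it was higher in differentiated cells, so the direction of these 3 is no support for a rise. Without differentiated male replicate 2, DCN (limma adjusted p = 0.0446), LUM (adjusted p = 0.00944) and PDGFRA (adjusted p = 0.00742) passed the test, and the count of genes that rose went from 3 to 6.

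**Figure D2:**
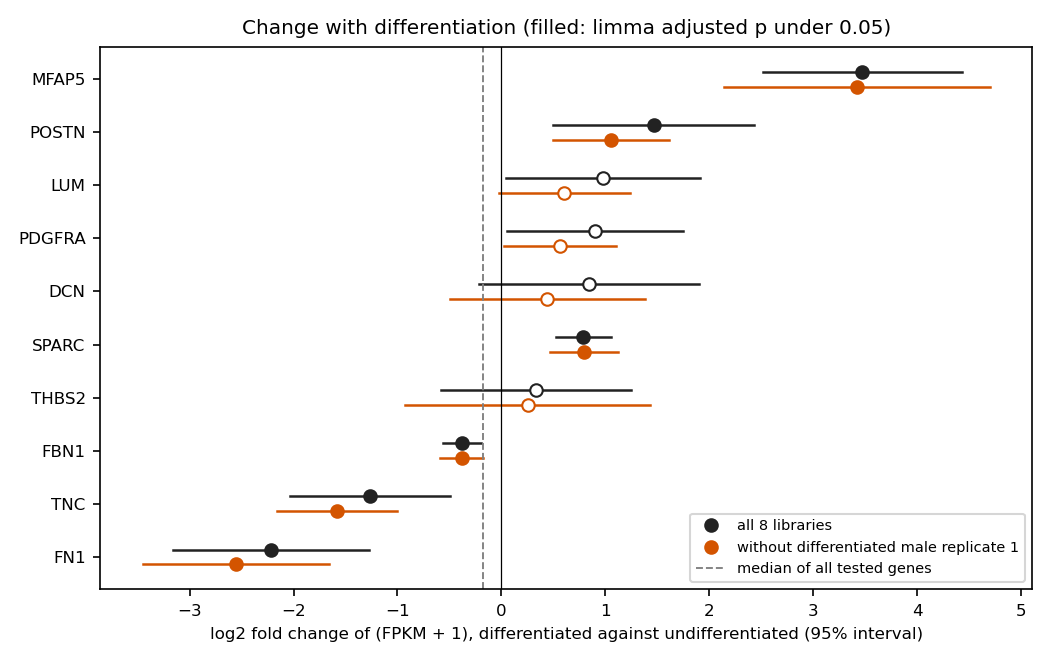
Log2 fold change of (FPKM + 1), differentiated against undifferentiated, with 95% intervals, for all 8 libraries (black) and without differentiated male replicate 1 (orange); filled points passed the limma test and the dashed line is the median of all tested genes. The same 6 genes are filled in both fits, while LUM moves from 0.98 to 0.60 and FN1 from -2.22 to -2.55.

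By level, the 10 transcripts differed widely in undifferentiated cells. FN1 led at 509 ± 180 FPKM (SD, n = 4), and its lowest library was above the highest of SPARC, which in turn was above all values of TNC and FBN1. TNC and FBN1, at means of 93.8 and 80.1 FPKM, overlapped each other. MFAP5, DCN and THBS2 followed, each overlapping the next, and PDGFRA, LUM and POSTN were each under 1 FPKM in all 4 libraries and overlapped as well. In differentiated cells SPARC led at 272 ± 10.3 FPKM, MFAP5 had moved from the fifth to the second place at 152 ± 64.1 FPKM, and FN1 had moved to the third at 125 ± 99.3 FPKM. The range of FN1 overlapped those of SPARC and MFAP5, which were apart from each other. FBN1 at 61.8 ± 9.71 and TNC at 48.4 ± 43.0 FPKM came next, and their ranges overlapped. DCN, THBS2, POSTN, LUM and PDGFRA made up the lower end, with mean levels of 8.26 down to 1.76 FPKM, each range overlapping the next.

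Differentiated male replicate 1 had the highest level of the 4 differentiated libraries for 7 of the 10 genes, an ordering looked at after the values had been seen, which 29.7% of tested genes shared. Set against the mean log2 level of the other 3 differentiated libraries, it was higher by 2.35 for DCN, 2.08 for LUM, 2.08 for TNC, 1.87 for FN1, 1.59 for PDGFRA and 1.49 for POSTN. For these 6 genes the excess was above that of 97.5% to 99.1% of all tested genes. Without this library LUM, PDGFRA and POSTN averaged 0.517, 0.532 and 0.638 FPKM, under the level required for testing. These genes could be tested only if this library was high for them. Nothing is therefore read from their excess, or from their part in the 7 of 10. FBN1 and THBS2 had an excess of 0.27 and 0.34, SPARC of 0.02, and MFAP5 a value of -0.57. The library was thus high for both proteoglycans, PDGFRA, TNC, FN1 and POSTN, and close to the others for SPARC. For MFAP5, at 105 FPKM, it was below both female libraries (223 and 188) but above male replicate 2 (90.7).

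**Figure D3:**
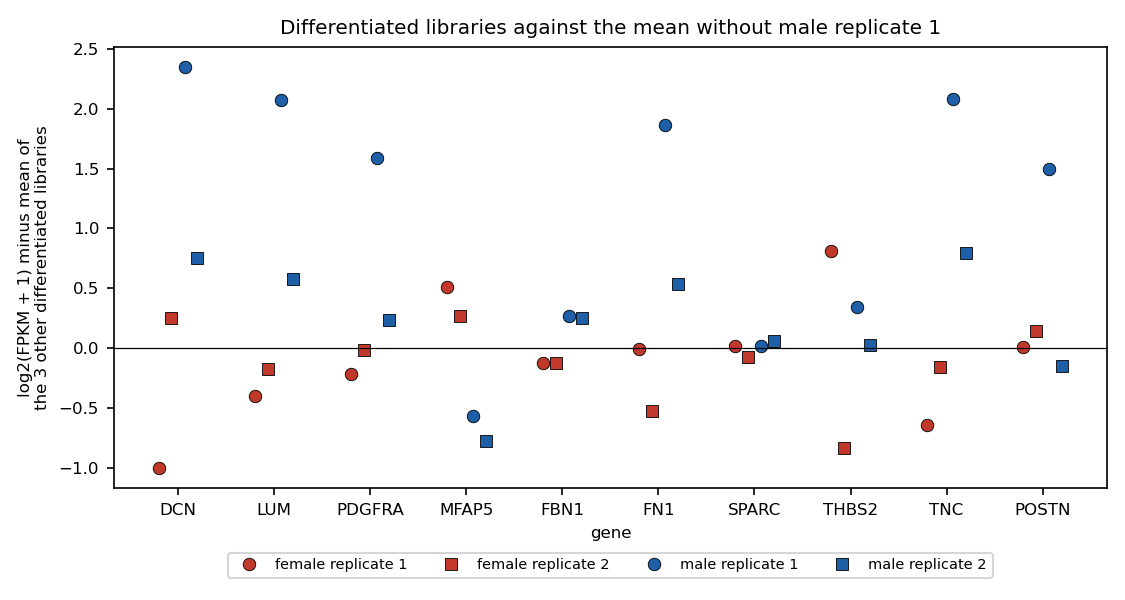
Log2(FPKM + 1) of each differentiated library minus the mean of female replicates 1 and 2 and male replicate 2, for each gene; red marks females, blue males, circles replicate 1 and squares replicate 2. Male replicate 1 stands 1.49 to 2.35 above that mean for DCN, LUM, PDGFRA, FN1, TNC and POSTN, near it for SPARC and THBS2, and below both females for MFAP5.

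Markers of other cell types were summed in each library to describe what the cultures held. Of 20 fibroblast and fibro-adipogenic markers chosen beside the 10 genes, 19 were found, and their summed level was 469 to 902 FPKM in undifferentiated and 692 to 1596 FPKM in differentiated libraries. The 1596 FPKM belonged to differentiated male replicate 1, which was the highest differentiated library for 11 of the 19 markers. COL1A1, the alpha-1 chain of type I collagen, had 783 FPKM there against 165, 178 and 499 in the other differentiated libraries and accounted for a large share of that sum. The COL1A1 entry spans only 526 bp, so its level may not stand for the whole gene, and the sum carries that limit. Of the 13 fibroblast markers tested, 5 rose and 4 fell, where 18.0% of all tested genes rose and 31.9% fell. The risen FAP and MEOX2 had undifferentiated means under 1 FPKM and could be tested only through higher differentiated values. Their direction is no support for a rise. The quiescent fibroblast regulator HIC1 was listed at 0 in all 8 libraries, PI16 in all 4 undifferentiated ones, and CD34 was at or below 0.460 FPKM throughout. The HIC1 entry spans only 650 bp of an unplaced scaffold, so its 0 is weak evidence of absence. Only these 3 of the 19 markers were under 1 FPKM in every library. Mean levels before and after differentiation were 7.34 and 65.1 FPKM for PCOLCE, 19.2 and 6.74 for OSR1, and 16.9 and 5.11 for DPP4. The OSR1 entry spans only 636 bp and carries the limit named for COL1A1. What part fibroblasts had in the levels of DCN, LUM, PDGFRA and POSTN was not tested.

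The cultures also carried the myogenic markers that their label calls for. MYF5, a determination factor of myoblasts, had a mean of 265 ± 50.6 FPKM (SD, n = 4) in undifferentiated and 83.5 ± 23.8 in differentiated cells and fell (log2 change -1.69, limma adjusted p = 0.000609). Of 8 tested muscle stem cell and myoblast markers 4 rose and 4 fell, where 18.0% of all tested genes rose and 31.9% fell. MYF5 is among the 4 that fell and does not stand for the list. The list summed to 870 to 1237 FPKM before and 1971 to 2528 FPKM after differentiation. All 6 tested myotube markers rose, and their sum went from 49.7 to 146 FPKM in undifferentiated libraries to between 11854 and 17620 FPKM in differentiated ones. Of these, ACTA1, CKM and TNNC2 had undifferentiated means under 1 FPKM and could be tested only through higher differentiated values. The direction of their calls is therefore no support for a rise. Differentiated male replicate 1 had the lowest sum of those 4, 11854 FPKM. PAX7 is not analysed here. Smooth muscle and pericyte markers summed to 86.9 to 146 FPKM before and 1370 to 1529 FPKM after differentiation, of which ACTA2 alone had 8.47 to 26.1 and 993 to 1166 FPKM. All 6 tested genes of that list rose, though the call of MCAM was lost in 7 of the 8 fits without 1 library, and MYH11, the smooth muscle myosin, was at most at 0.0931 FPKM. CSPG4 of the smooth muscle and pericyte list also had an undifferentiated mean under 1 FPKM, so its direction is no support for a rise. The sums were 2.56 to 7.53 FPKM for endothelial, 2.99 to 17.0 for immune, 2.98 to 7.83 for Schwann cell and 0 to 1.85 for adipocyte markers. CD14 made up most of the immune sum, with 11.5 to 15.2 FPKM in undifferentiated and 1.74 to 2.46 FPKM in differentiated libraries, and fell (log2 change -2.24, limma adjusted p = 9.12e-05), while the macrophage gene LYZ was listed at 0 in all. PECAM1 made up most of the endothelial sum, at 2.07 to 6.78 FPKM, while EMCN was listed at 0 in all.

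**Figure D4:**
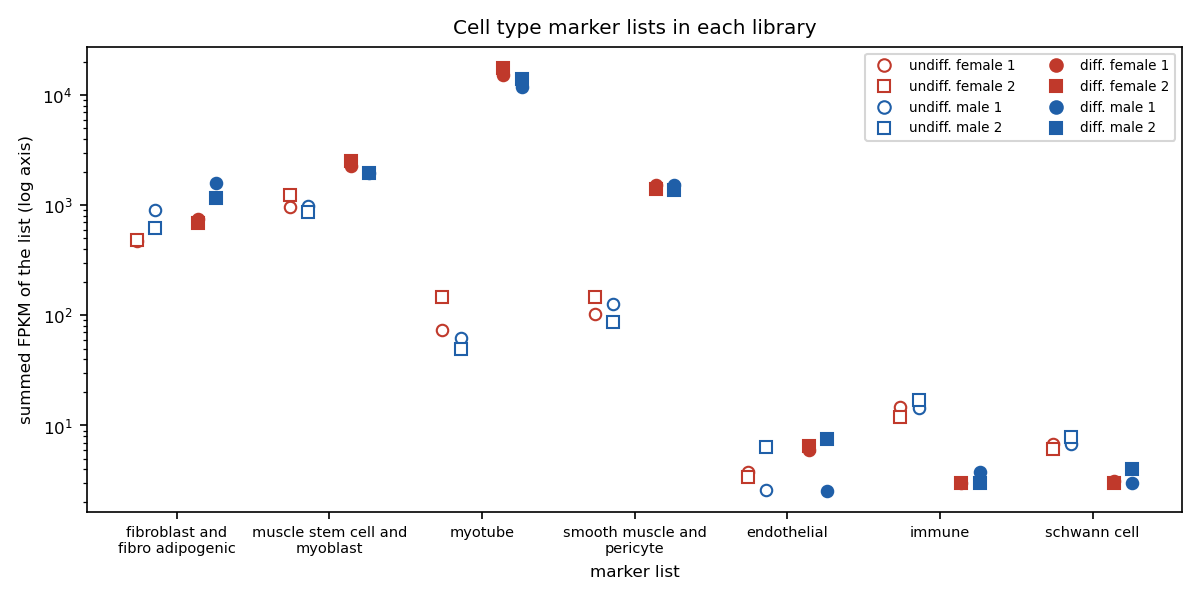
Summed FPKM of the matched genes of 7 marker lists in each library, on a log axis; open symbols are undifferentiated and filled symbols differentiated libraries, red females, blue males, circles replicate 1, squares replicate 2. Myotube markers go from at most 146 to at least 11854 FPKM, and differentiated male replicate 1 (filled blue circle) is highest for fibroblast markers at 1596 FPKM and lowest in its state for myotube markers.

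The changes of MFAP5, SPARC and FN1 passed the test as contrasts within each sex. These contrasts come from the fit to all 8 libraries, so both sexes share 1 estimate of the spread. Within females MFAP5 (log2 change 3.18, limma adjusted p = 0.00735) and SPARC (0.87, adjusted p = 0.00772) rose. FN1 (-2.60, limma adjusted p = 0.014), TNC (-1.80, adjusted p = 0.0243) and FBN1 (-0.51, adjusted p = 0.0132) fell in females, so 5 of 10 genes changed where 35.8% of tested genes did (12.5% upward and 23.3% downward). Within males MFAP5 (3.77, limma adjusted p = 0.00497) and SPARC (0.71, adjusted p = 0.0168) rose and FN1 fell (-1.84, adjusted p = 0.0461), 3 of 10 against 33.0% of tested genes (12.9% upward and 20.1% downward). The female count was 1 without undifferentiated female replicate 1 and the male count 1 without undifferentiated male replicate 2. The difference of the response between the sexes, tested as an interaction, passed for 0 of the 10 genes by limma (adjusted p = 0.828 to 0.973), where 0.0231% of tested genes passed. At an unadjusted p under 0.05 the interaction held for 0 of the 10 and for 6.03% of tested genes. LUM had the widest estimated gap, a response higher by 1.25 in males with a 95% interval of -0.62 to 3.11, an interval too wide to show that the sexes respond alike.

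Averaged over the states, 0 of the 10 genes differed between females and males by limma (adjusted p = 0.403 to 0.787), where 0.0849% of tested genes did. At an unadjusted p under 0.05 there were 6, against 9.73% of tested genes: DCN, LUM, FBN1, FN1 and TNC with lower and MFAP5 with higher levels in females. DCN had a female minus male log2 difference of -1.70, with a 95% interval of -2.76 to -0.65 (limma adjusted p = 0.419). MFAP5 had a difference of 1.36, with a 95% interval of 0.40 to 2.31 (limma adjusted p = 0.438). In both states, both male libraries were above both female ones for 6 of the 10 genes (DCN, LUM, PDGFRA, FBN1, FN1 and TNC), an order that 4.98% of tested genes had. MFAP5 had the opposite order in both states, as did 3.79% of tested genes. These orderings were looked at after the values had been seen, 2 libraries per sex and state may share an animal or a culture, and sex cannot be told apart from such a source.

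To place the 10 genes among related ones, 71 other genes were listed in 7 families, of which 66 were found and 52 were abundant enough to test. Of the 52 tested, 19 rose, 16 fell and 17 did not pass, with a median log2 change of 0.06. Over all tested genes 18.0% rose, 31.9% fell and the median log2 change was -0.18, so the counts by family below are descriptions. Of the 52, 6 had an undifferentiated mean under 1 FPKM (COMP, ELN, FBLN5, ITGA9, PDGFRL and PRELP) and could be tested only through higher differentiated values. The 5 of these that passed, all but ELN, are among the 19, and their direction is no support for a rise.

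**Figure D5:**
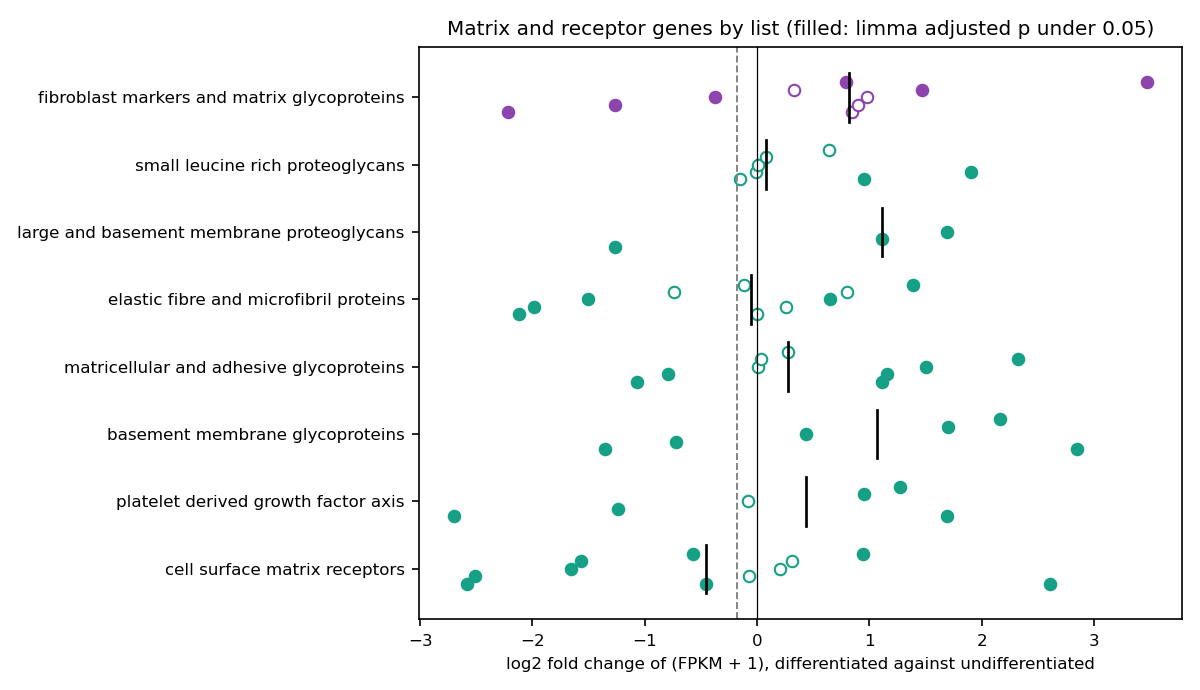
Log2 fold change of (FPKM + 1) with differentiation for the 10 genes (purple) and for the tested genes of 7 related families (green); filled points passed the limma test, black bars are medians and the dashed line is the median of all tested genes. The basement membrane family has 4 genes to the right and 2 to the left, while cell surface receptors lie mostly to the left with 6 of 11 fallen.

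Among the other small leucine-rich proteoglycans, the relatives of DCN and LUM, 2 of 7 rose and 0 fell. PRELP, which anchors basement membranes to connective tissue, had an undifferentiated mean of 0.443 FPKM and so was tested through its differentiated values; it rose (log2 change 1.90, limma adjusted p = 0.0023). ECM2 rose (log2 change 0.96, limma adjusted p = 0.0411), a call lost in 7 of the 8 fits without 1 library (adjusted p = 0.0586 to 0.12). Biglycan (BGN), the closest relative of decorin, had a log2 change of 0.01 (limma adjusted p = 0.989). Its levels were 77.8, 76.3, 101 and 69.1 FPKM in undifferentiated and 46.9, 73.9, 204 and 59.9 in differentiated cells, with male replicate 1 again highest. Of 3 large proteoglycans the basement membrane protein perlecan (HSPG2) rose (log2 change 1.69, limma adjusted p = 0.000833) and versican, VCAN (log2 change 1.11, adjusted p = 0.0147, lost in 3 fits without 1 library). The HSPG2 entry spans only 7251 bp, so its level may not stand for the whole gene. Agrin (AGRN), which clusters acetylcholine receptors, fell (log2 change -1.27, limma adjusted p = 0.0119).

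In the family of elastic fibre and microfibril proteins, the partners of MFAP5 and FBN1, 2 of 10 rose, 3 fell and 5 did not pass. FBLN5, which helps to assemble elastic fibres, rose (log2 change 1.39, limma adjusted p = 0.0037) and EFEMP2 (log2 change 0.65, adjusted p = 0.00663). LTBP2 (log2 change -2.12, limma adjusted p = 0.00144) and LTBP3 (-1.99, adjusted p = 0.000144), which bind to fibrillin microfibrils or to latent TGF-beta, fell. FBN2, the second fibrillin, also fell, from 18.0 ± 6.97 to 5.47 ± 1.07 FPKM (SD, n = 4; log2 change -1.50, limma adjusted p = 0.0061). Both fibrillins were therefore lower and MFAP5 higher in differentiated cells, with the limit given above for FBN1 under median-ratio scaling.

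Of 9 matricellular and adhesive proteins related to SPARC, THBS2, TNC and POSTN, 4 rose and 2 fell. SPARCL1, the close relative of SPARC, rose from 6.88 ± 3.11 to 37.2 ± 11.0 FPKM (SD, n = 4; log2 change 2.32, limma adjusted p = 0.000323), in the same direction as SPARC. COMP, a thrombospondin of cartilage and tendon, rose (log2 change 1.50, limma adjusted p = 0.0156) with the limit named for low genes, and its call was lost under quantile normalization (adjusted p = 0.0585). MGP, an inhibitor of calcification, rose too (log2 change 1.12, adjusted p = 0.00142). THBS1 fell (log2 change -0.80, limma adjusted p = 0.00874), as did THBS3 (-1.07, adjusted p = 0.0103), while THBS2 did not pass.

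All 6 tested basement membrane glycoproteins changed, in both directions. LAMA4 rose (log2 change 2.84, limma adjusted p = 0.000625), NID2 (log2 change 2.16, adjusted p = 0.00636) and LAMB2 (log2 change 1.70, adjusted p = 9.25e-05). NID1 rose (log2 change 0.44, limma adjusted p = 0.0332), a call lost in 6 of 8 fits without 1 library. LAMB1 fell (log2 change -1.36, limma adjusted p = 0.000667) and so did LAMC1 (-0.72, adjusted p = 0.00192). A laminin beta chain thus rose and another fell, as MFAP5 and FBN1 did among microfibril proteins.

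In the axis of platelet-derived growth factors, the ligands and partners of PDGFRA, 3 of 6 genes rose and 2 fell. PDGFA, a ligand of PDGFRA, fell from 114 ± 15.4 to 16.6 ± 0.791 FPKM (SD, n = 4; log2 change -2.70, limma adjusted p = 3.31e-05). PDGFB fell (log2 change -1.24, limma adjusted p = 0.00253) and PDGFD, a ligand of the beta receptor, rose (log2 change 1.69, adjusted p = 0.000821). The PDGFB entry spans only 1824 bp, so its level may not stand for the whole gene. PDGFRL rose (log2 change 1.27, limma adjusted p = 0.0259) and the beta receptor PDGFRB (log2 change 0.95, adjusted p = 0.0431), calls lost in 5 and 6 of the 8 fits without 1 library. PDGFRB had 6.31, 8.56, 12.0 and 8.48 FPKM in undifferentiated and 9.58, 11.6, 46.7 and 18.1 in differentiated cells, with differentiated male replicate 1 on top as for PDGFRA. The beta receptor was higher than the alpha receptor in each of the 8 libraries.

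Of 11 cell surface receptors for matrix, through which cells bind FN1, TNC, POSTN and the thrombospondins, 2 rose, 6 fell and 3 did not pass. SDC4, a syndecan that acts with integrins on fibronectin, fell (log2 change -2.58, limma adjusted p = 0.000114), and the hyaluronan receptor CD44 fell (-2.51, adjusted p = 0.0004). Integrin subunit ITGA9, a partner for tenascin-C, had an undifferentiated mean of 0.246 FPKM, with the same limit, and rose (log2 change 2.61, limma adjusted p = 0.002). ITGA8 rose (log2 change 0.94, limma adjusted p = 0.032), a call lost in 7 of the 8 fits without 1 library. The beta-1 integrin ITGB1 fell (log2 change -0.46, limma adjusted p = 0.0259), which did not hold with no filter (adjusted p = 0.0572), with quantile normalization (0.168) or when rescaled by median ratios (0.183), nor in 5 of the 8 fits without 1 library (0.0559 to 0.0782). ITGA5, the alpha subunit of the classical fibronectin receptor, had a log2 change of 0.21 (limma adjusted p = 0.3) with 19.3 to 27.4 FPKM before and 20.3 to 43.7 after differentiation.

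Among 10181 genes with a symbol, those whose log2 levels followed each of the 10 most closely over the 8 libraries were listed by Pearson's r, given as a description because the 8 points share 2 states and their depth. LUM and PDGFRA were close to each other (r = 0.981), and PDGFRB was close to both (r = 0.993 with LUM and 0.978 with PDGFRA). Each of them had its highest level in differentiated male replicate 1, at 6.37 (LUM), 4.50 (PDGFRA) and 46.7 FPKM (PDGFRB). How far these r values rest on that library was not tested. DCN was followed by ZNF770 (r = 0.974), ITGA5 (0.959) and the chemokine gene CCL2 (0.931). TNC was closest to KCNK12 (r = 0.988), FN1 to FAM133B (0.994) and POSTN to ECEL1 (0.989). MFAP5 was closest to IMMP1L (r = 0.996), SPARC to DDI1 (0.997), FBN1 to TUBA1B (0.991) and THBS2 to HERC4 (0.938).

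The depth in reads is unknown. Estimated from steps in low values, relative depth was 1.65 to 2.28 in undifferentiated and 1 to 1.63 in differentiated libraries, with differentiated female replicate 1 set to 1. By these estimates every differentiated library was shallower than every undifferentiated one, though 1.63 and 1.65 are nearly equal. An equal FPKM of POSTN, LUM or PDGFRA thus rests on fewer fragments in differentiated libraries. Between 11940 and 13074 genes reached 1 FPKM per library.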

How the data were processed

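The authors deposited 1 table of FPKM per gene for 8 RNA-seq libraries. Per the submitters' processing notes, the genome build was Sscrofa10.2 and the tools were Cufflinks 2.2.1, TopHat2 2.0.12.1 and cutadapt 1.6, with settings not given in the sources used here. Per the labels' protocols, libraries came from a stranded kit for small amounts of total RNA, while the molecule is labelled polyA RNA. Whole read counts were not recovered, so no count test was run. Values were taken as log2(FPKM + 1), and the 12963 genes averaging 1 FPKM or more were tested in R 4.3.3 with limma 3.58.1, with 1 mean per sex and state, a mean-variance trend, 4 residual and 2.09 prior degrees of freedom, and Benjamini-Hochberg adjustment over all tested genes (threshold 0.05, two-sided). Single genes were also tested by an exact permutation test of the difference between state means of log2 values. Gene symbols came from the table or, where it gave none (9011 genes), from an Ensembl identifier table. In each related family up to 2 risen and 2 fallen genes, those of largest change past the threshold, and the most abundant in each state were named, and the 3 most similar symbols of each gene were sought among tested genes of at least 300 bp; other genes were named with their values known. The genes and lists were chosen with earlier results of these data known. Alternative analyses used a pseudocount of 0.1, all genes unfiltered, median-ratio scaling, quantile normalization, a replicate block, no sex term, genes under 300 bp left out (as 218 genes had values above 100000 FPKM), and each library left out. The fit was tested on simulated data. Promoter and protein sequences are not used here.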

Additional observations from a re-analysis of the deposited data

Results flagged for a closer look

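PDGFRA in differentiated male replicate 1, at 4.50 FPKM, stood apart from the other 3 differentiated libraries, since the gap to the next value made up 0.853 of the whole range of the 4. POSTN in the same library, at 5.60 FPKM, stood apart likewise, with a gap of 0.895 of the range. These are 2 of 20 groups of 4 values examined (10 genes in 2 states), and chance alone sets apart about 1 group in 20 if values are normally distributed. The gaps were taken on FPKM and not on log2 values. Taken on log2(FPKM + 1), the gap is a smaller share of the range for both genes, and neither value would be set apart. The 2 values therefore stand apart on the FPKM scale only. Both values come from the library that had the highest fibroblast marker sum (1596 FPKM) and the lowest myotube marker sum (11854 FPKM) of the differentiated cells, and the part of these in the 2 values was not tested. The COL1A1 entry of 526 bp accounted for a large share of that fibroblast sum.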

How the results depend on the processing

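The 6 changed genes numbered 4 to 7 under the 7 other settings and 4 to 9 without single libraries. The number risen was 2 to 6 without single libraries, 6 being reached without differentiated male replicate 2, and the number fallen 2 to 3. Related genes changed numbered 28 to 33 without single libraries (13 to 17 risen, 15 to 16 fallen). Within females the count of changed genes was 3 with no filter and 1 to 6 without single libraries, and within males 1 to 4. Under quantile normalization 3 genes in place of 5 reached the smallest exact permutation p of 0.0286. The log2 change of THBS2 ranged from -0.0793 to 0.74 without single libraries, the negative value being that without differentiated female replicate 1. MFAP5, SPARC and FN1 kept their direction and their call under all 15 alternatives, FBN1 under 14, TNC under 10 and POSTN under 7. The cause of the other outcomes was not tested. With the replicate number within sex as a replicate block, the count of changed genes was 6. Deviations from group means correlated at 0.113 between same-numbered female and 0.126 between same-numbered male libraries. The labels do not say that a number marks a shared animal and each sex has only 2 pairs, so the block was not used. Absolute depth is unknown, so counting error of POSTN, LUM and PDGFRA cannot be given.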
